A study of Caenorhabditis elegans with 18 samples.

Results

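The splicing tables of this experiment held 407 mutually exclusive exon events among 6103 events of 5 types, and every one of the 407 was included. They lay in 247 genes and described 358 distinct exon pairs, since some pairs were listed with different flanking exons. Wild type (N2) Caenorhabditis elegans were fed bacteria expressing double-stranded RNA from the first larval stage. At the late L3 stage they were moved to new RNAi plates with or without 300 µM cadmium for 12 h. They were collected as late L4 to young adult worms. The 6 groups were ints-4(RNAi) with cadmium, ints-4(RNAi), numr-1/2(RNAi) with cadmium, numr-1/2(RNAi), control(RNAi) with cadmium and control(RNAi), with 3 biological replicates each. ints-4 encodes a subunit of the integrator complex, which processes the 3′ ends of spliceosomal snRNAs, and numr-1 encodes a protein resembling SR splicing factors that cadmium induces. All worms carried an RNAi treatment, the controls included, and each library came from whole worms.

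Mutually exclusive exons are neighbouring exons of which a mature mRNA is expected to carry only 1. Such pairs often encode alternative versions of a single protein segment, so that the choice swaps a stretch of the protein without ending the reading frame, and the choice frequently differs between tissues or developmental stages. In C. elegans, well-known pairs lie in let-2, which encodes a type IV collagen chain, in the FGF receptor gene egl-15 and in the homeodomain gene unc-62.

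For each pair, the level is the share of reads, after division by the length of each form, assigned to the exon that comes first in the transcript, in percent of both exons. A difference between groups is the difference of their mean levels, in percentage points. Of the 388 events whose exons differ in length, the form lengths placed the counted exon first in the transcript in 388, and the same orientation was assumed for the 19 events with exons of equal length. Reads within an exon count for it as well as reads across its junctions. A pair whose exons are both kept in the same mRNA therefore has a level that reflects the relative read coverage of the exons, near 50% when coverage is even.

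The pairs divided by gene annotation into 3 classes. In 351 events the exons occurred together in at least 1 annotated transcript, in 42 both exons were annotated but never in the same transcript, and in 14 an exon was not annotated. The exon lengths differed by a multiple of 3, so that a swap keeps the reading frame, in 40 of the 42 events that share no transcript (95.2%) and in 183 of the 351 that do (52.1%). An exon of the pair was also listed as a skipped exon next to its partner in 326 of those 351 events and in 1 of the 42. In control(RNAi), 109 events had skipped exon levels for both exons, and in 67 of them (61.5%) both exons were included at 95% or more.

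The class without a shared transcript held textbook pairs and pairs in muscle, matrix, channel and signalling genes. Its members included let-2, egl-15, unc-62, the myotactin gene let-805, the alpha-actinin gene atn-1, the tropomyosin gene lev-11, the fibulin gene fbl-1, the vacuolar ATPase gene unc-32, the potassium channel gene slo-1, the ABC transporter gene mrp-1 and the kinase gene akt-1. The counts that follow are over all 407 events of the 3 classes. By gene lists, 30 lay in 20 genes of muscle and cytoskeleton and 28 in 7 genes of matrix and adhesion. In each of these lists 5 events shared no transcript. There were 26 in 19 genes of kinases, receptors and signalling, and 24 in 13 genes of channels, pumps and transporters, with 9 in each sharing no transcript. Transcription and chromatin genes gave 18 events, 3 of them without a shared transcript. RNA binding genes gave 13 and DNA repair genes 8, with 0 such events in either list. The genes with most events were F49E2.5 with 15 and fbn-1 with 10, and 174 genes had 1 event. The median exon was 156 bases long for the first exon and 159 for the second, and the exons were separated by a median of 559 bases.

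Between 205 and 329 events were listed per group. In control(RNAi), 316 events had at least 10 reads in every library, and their median level was 48.6%. Both exons were in use in most of them, with 87.7% of events between 5% and 95%, 24 events under 5% and 15 over 95%. Levels between 40% and 60% made up 43.9% of the events with a shared transcript and 15% of those without. The median SD between the 3 libraries was 3.77 points in the class with a shared transcript and 6.03 points in the class without, which also had fewer reads, a median of 195.5 in the shallowest library against 406.

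**Figure D1:**
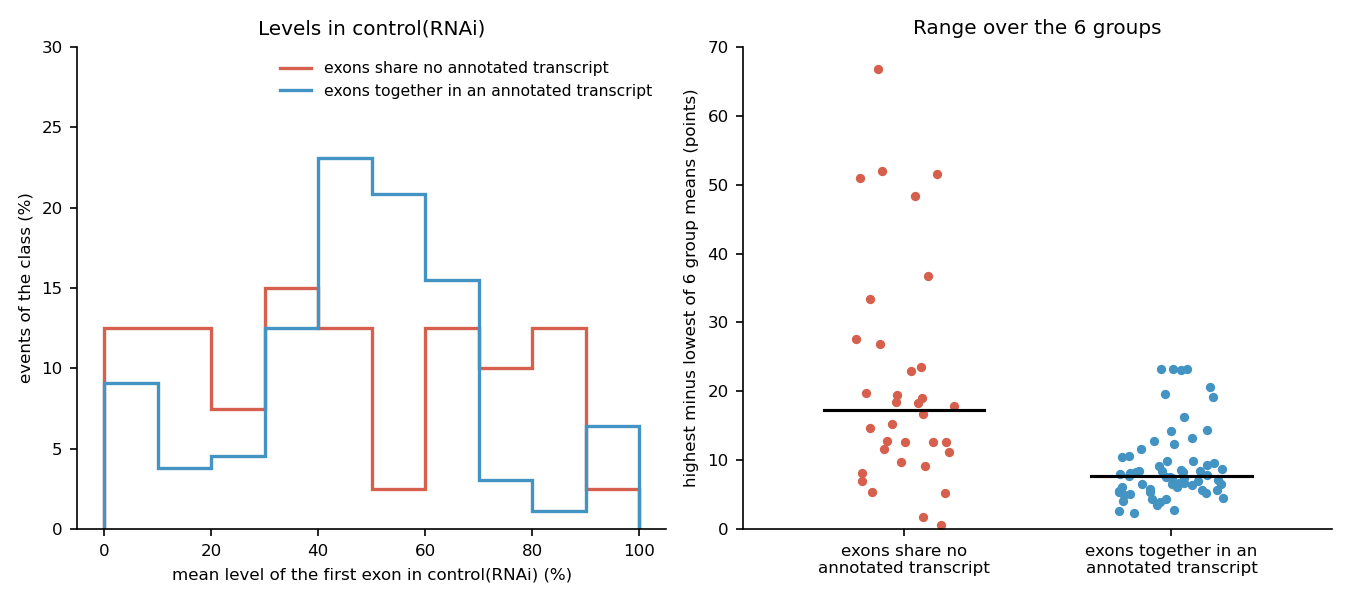
Left, mean level of the first exon in control(RNAi), in percent, as the share of events per 10% bin for 2 annotation classes; right, the highest minus the lowest of the 6 group means per event, in percentage points, with the class median as a line. Events without a shared annotated transcript were spread over the whole range of levels and had a median range over groups of 17.3 points, against 7.65 points for events whose exons occur together.

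Where each library of all 6 groups had 10 reads or more, the median gap between the highest and the lowest group mean was 8.78 points. In the class without a shared transcript, 26 of 34 events ranged over 10 points or more, with a median of 17.3 points and a median within-group SD of 4.60 points. In the class with one, 16 of 65 did so, with a median range of 7.65 points and a median SD of 3.42 points. These are descriptions of the 2 classes and were not tested.

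Over the 1870 events readable in all groups, libraries held between 636489 and 1029904 reads. Over the 115 mutually exclusive events among them, they held between 110834 and 197118, with 223 to 481 reads for the median event. In the pooled expression values, 1 per group with no error, ints-4 was at 642 in ints-4(RNAi) and 1484 in control(RNAi). numr-1 was at 1.92 in numr-1/2(RNAi) and 3.11 in control(RNAi), 2 low values. With cadmium it was at 51.3 in numr-1/2(RNAi), against 2.06 without, and at 234 in control(RNAi), against 3.10 without. In ints-4(RNAi) without cadmium numr-1 was at 252, against 3.12 in control(RNAi). Tissue markers differed between groups more in some tissues than in others. The 6 intestine markers summed to 27674 in ints-4(RNAi), against 106150 in control(RNAi), with all 6 lower. They summed to 365000 in numr-1/2(RNAi), against 105518, where the yolk genes vit-2, vit-5 and vit-6 were higher and the other 3, ges-1, elt-2 and pept-1, were lower. The 9 epidermis and moulting markers summed to 21894 in numr-1/2(RNAi), against 96734 in control(RNAi), and the 12 oocyte and germline markers to 95765, against 47114. With cadmium the intestine markers summed to 81360 in numr-1/2(RNAi), against 390092 without, with 5 lower and 1 higher. In control(RNAi) they summed to 24919 with cadmium, against 105981 without, with all 6 lower. In numr-1/2(RNAi) the epidermis and moulting markers summed to 52181 with cadmium, against 23407 without, with 9 of 9 higher, and the oocyte and germline markers to 57686, against 102383, with 12 of 12 lower. The 7 body wall muscle markers summed to 529548 in ints-4(RNAi), against 523640 in control(RNAi), with 4 higher and 3 lower. In numr-1/2(RNAi) they summed to 418629, against 520462, with 1 higher and 6 lower. The 7 neuron markers summed to 13602 in numr-1/2(RNAi), against 22441 in control(RNAi), with all 7 lower. There the 11 sperm markers with a value summed to 49038, against 19837, with all 11 higher. No marker was at 0. The part of tissue makeup and stage in the results below was not tested. In whole worms, fewer cells of a type and less RNA per cell cannot be told apart.

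Each comparison used a moderated quasi-binomial F test on the reads of all 5 event types, with Benjamini-Hochberg adjustment over all of them, and events with an adjusted p below 0.05 are called. Over the 7 comparisons, 392 events could be tested at least once, and 23 pairs of event and comparison were called, from 18 events in 15 genes. Of the 18 called events, 17 keep the reading frame, against 223 of the 392 tested. In all 23 called pairs the libraries of the groups did not overlap. The calls were sensitive to the test and to single libraries. limma on the log2 ratio of the reads called 0 of them, with adjusted p between 0.224 and 0.790 for the 23. With any 1 library left out there were between 0 and 2 calls per comparison, not always of the same pairs. No difference changed sign in any of these settings. By class, libraries did not overlap in 12 of 39 events without a shared transcript and 26 of 187 with one in ints-4(RNAi), and in 14 of 37 and 18 of 147 in ints-4(RNAi) with cadmium. In numr-1/2(RNAi) the counts were 10 of 36 and 17 of 159, and with cadmium 11 of 36 and 10 of 99. For cadmium they were 5 of 36 and 17 of 90 in ints-4(RNAi), the only comparison with the smaller share in the class without a shared transcript, 9 of 35 and 26 of 160 in numr-1/2(RNAi), and 8 of 39 and 20 of 157 in control(RNAi). Over all events of the 5 types the shares were, in the same order, 11%, 13.3%, 15.1%, 20.3%, 12.8%, 16.2% and 12.9%. The classes were not tested against these shares.

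ints-4(RNAi) without cadmium gave 8 called pairs out of 234 tested, 5 higher and 3 lower than control(RNAi). Of all 2816 events tested in that comparison, 1.46% were called, 0.604% with the counted form higher and 0.852% lower, against 3.42% of the mutually exclusive ones. The libraries of the 2 groups did not overlap in 40 of the 234 (17.1%, against 11% of all events), and in 14 of these the means were 10 points or more apart (5.98%, against 4.23%). Alternative 5′ splice site events were called at a similar share, 6 of 182 (3.3%). Mutually exclusive events were the deepest type, with a median of 367.5 reads in the shallowest library. The median was 125 for skipped exons, 103 for alternative 3′ sites, 91.5 for alternative 5′ sites and 62.5 for retained introns. The part of depth in these shares was not tested. Exon positions below are those of the files, which name no genome build and whose exon ends mostly match the WBcel235 annotation. The called genes were egl-15, F08B12.4, lev-11 with 2 pairs and iff-2 on the higher side, and F32A5.2, clec-123 and unc-44 on the lower side.

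egl-15 encodes the only FGF receptor of C. elegans, and its exons at chrX:11017580-11017930 and chrX:11017945-11018139 share no annotated transcript. The level of the first exon was 95.2%, 96.4% and 96.4% in ints-4(RNAi), against 83.4%, 60.1% and 78.5% in control(RNAi). All 3 ints-4(RNAi) libraries lay above every control, and the level rose by 22 points (adjusted p = 0.0225, quasi-binomial model, n = 3 each). With cadmium the values were 93.7%, 97.9% and 97.5% in ints-4(RNAi) and 84.0%, 84.7% and 77.6% in control(RNAi), again without overlap but not called (14.3 points, adjusted p = 0.203). In numr-1/2(RNAi) without cadmium the levels were lower than in control(RNAi) in every library, at 58.0%, 37.9% and 38.7%, from as few as 44 reads per library (-29.1 points, adjusted p = 0.285). The pooled value of the gene itself was 467 in numr-1/2(RNAi), against 1429 in control(RNAi).

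unc-44 encodes ankyrin, which links membrane proteins to the cytoskeleton, and its pair joins an annotated exon at chrIV:5984796-5984980 with a longer one at chrIV:5985577-5986355 that the annotation lacks. The first exon stood at 28.6%, 26.2% and 25.8% in ints-4(RNAi), against 33.3%, 37.4% and 40.7% in control(RNAi), with 5069 or more reads in each library. The groups did not overlap and the level fell by 10.3 points (adjusted p = 0.00398). The same pair was the only one called between ints-4(RNAi) and control(RNAi) when both received cadmium, at 24.6%, 23.5% and 23.0% against 33.3%, 31.6% and 33.6% (-9.17 points, adjusted p = 0.00303).

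lev-11 encodes tropomyosin, an actin-binding regulator of muscle contraction, and 5 of the 407 events lay in it. The pair at chrI:14624544-14624661 and chrI:14624303-14624420 was at 78.8%, 74.3% and 80.9% in ints-4(RNAi), against 63.4%, 66.0% and 73.7% in control(RNAi), and rose by 10.3 points (adjusted p = 0.0398). The pair of the exons at chrI:14623010-14623148 and chrI:14622304-14622511, which do occur together in transcripts, was at 98.4%, 98.2% and 98% in ints-4(RNAi), against 95.8%, 96.2% and 96.3% in control(RNAi), a rise of 2.08 points (adjusted p = 1.8e-05). Listed with another flanking end, the same exons were at 92.9%, 93.6% and 93.1% in numr-1/2(RNAi), where the level fell by 2.91 points relative to control(RNAi) (adjusted p = 0.0141). None of these groups overlapped, and for this pair of exons the 2 RNAi groups lay on opposite sides of the control that they share.

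In F32A5.2 the first exon (chrII:7246824-7247246) was at 21.7%, 23.9% and 25.7% in ints-4(RNAi), against 39.6%, 42.0% and 41% in control(RNAi), and fell by 17.1 points (adjusted p = 0.00263). The exons share annotated transcripts, and each was also measured as a skipped exon. The first was included at 31.7%, 44.6% and 36.5% in ints-4(RNAi), against 55.6%, 48.2% and 52.8% in control(RNAi), while the second was at 100% in all 3 ints-4(RNAi) libraries, against 77.5%, 78.1% and 81.8%. With cadmium the pair was at 16.9%, 17.1% and 18.9% in ints-4(RNAi), against 49%, 31.5% and 26.6% in control(RNAi), a difference of -18.1 points that was not called (adjusted p = 0.203).

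In clec-123, iff-2 and F08B12.4 at least 1 exon of the pair was nearly always included where it was measured as a skipped exon beside its partner. No group had a skipped exon level for both exons of these pairs, so the use of the other exon and the relative coverage of the exons cannot be told apart in their levels. clec-123 encodes a protein with a C-type lectin domain. Its pair was at 36.9%, 38.9% and 38.8% in ints-4(RNAi), against 53.3%, 53.4% and 53.1% in control(RNAi), and fell by 15.1 points (adjusted p = 0.000761). As skipped exons, its first exon was included at 97.2% or more in ints-4(RNAi) and its second at 99.6% or more in control(RNAi). The pooled value of the gene was 3.24 times as high in ints-4(RNAi) as in control(RNAi). The second exon of iff-2 was included at 99.9% on average in ints-4(RNAi). iff-2, which encodes a homolog of translation factor eIF5A, was at 4.58%, 5.22% and 4.97% in ints-4(RNAi), against 1.85%, 2.21% and 2.49% in control(RNAi), from 14058 or more reads a library (2.74 points higher, adjusted p = 1.21e-05).

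The pair in F08B12.4 (chrX:11407494-11407553 and chrX:11407359-11407421) was called in 3 comparisons. As a skipped exon, its first exon was included at a mean of 97.9% in numr-1/2(RNAi) with cadmium and of 98.8% in control(RNAi). Its level was 51.7%, 51.4% and 51.2% in ints-4(RNAi), against 35.1%, 32.8% and 35.0% in control(RNAi), a rise of 17.2 points (adjusted p = 2.77e-07). With cadmium, control(RNAi) worms were at 55.1%, 55.0% and 52.3%, which is 19.8 points above control(RNAi) without cadmium (adjusted p = 0.0262). No library of either group lay below 51.2%, and none of control(RNAi) lay above 35.1%. In numr-1/2(RNAi), the level was 45.3%, 50.9% and 47.1% with cadmium, against 33.0%, 34.6% and 32.9% without (14.3 points higher, adjusted p = 8.36e-06). ints-4(RNAi) with cadmium was at 48.7%, 51.7% and 49.6%, which overlaps ints-4(RNAi) without cadmium (-1.47 points, adjusted p = 0.560). The cadmium effect in ints-4(RNAi) thus differed from that in control(RNAi) by -21.3 points, and the interaction test called it (adjusted p = 4.02e-08). The read counts of control(RNAi) with cadmium were run together in the deposited cell and were separated with the help of the study's supplementary tables. Only separations that give the deposited level were considered, so the level is the same in each, while the test also depends on the counts. The pooled value of the gene was 2.35 times as high in ints-4(RNAi) as in control(RNAi), and 1.63 times as high in control(RNAi) with cadmium as without.

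**Figure D2:**
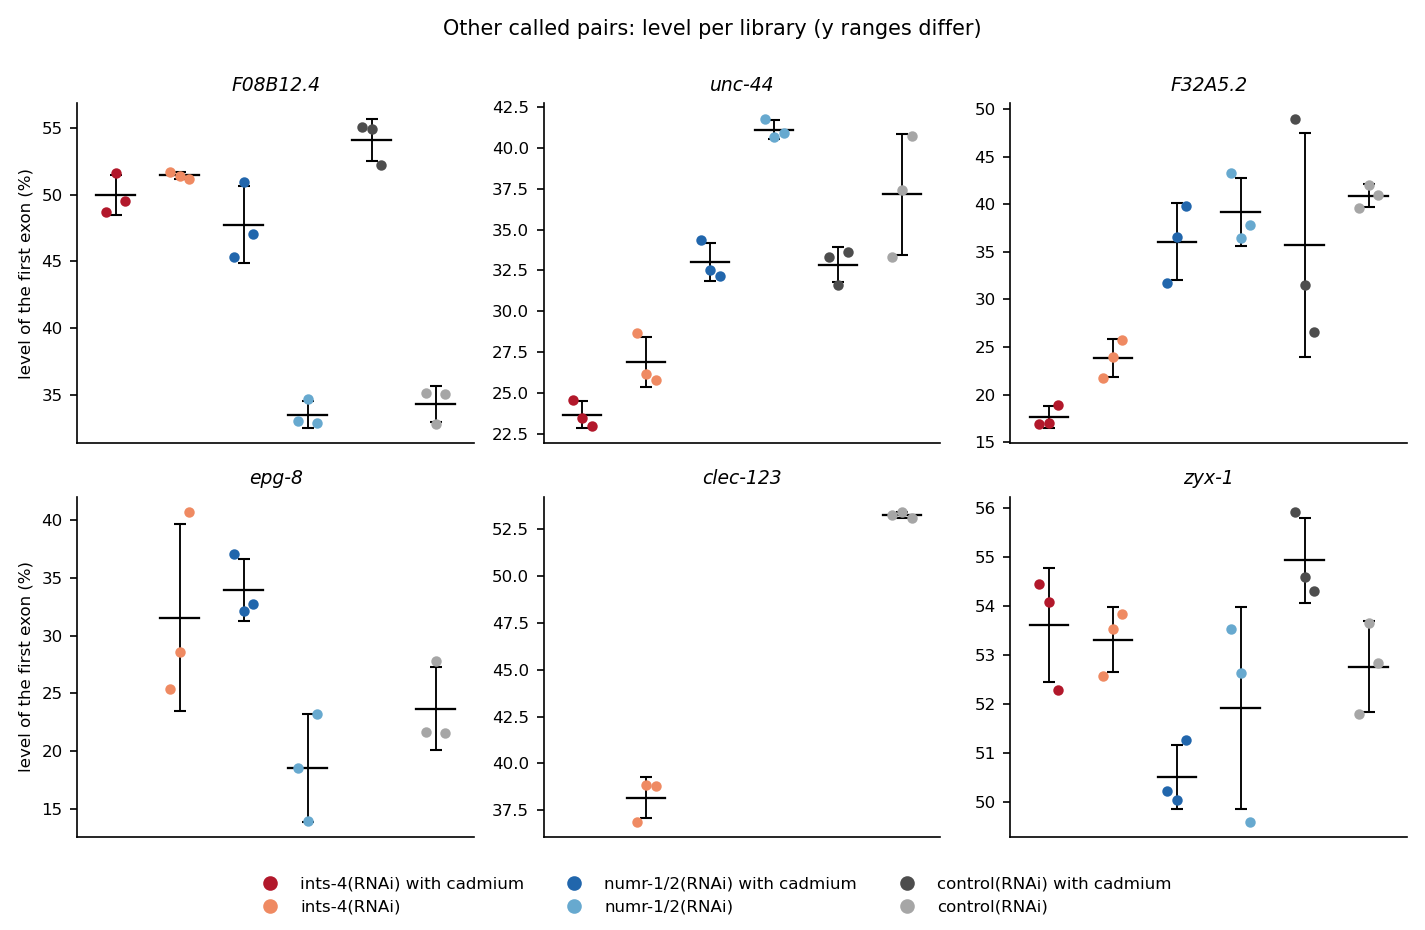
Level of the first exon, in percent, of 6 called pairs whose exons share an annotated transcript or include an exon not annotated, with each library as a point and the mean ± SD of 3 libraries in black for each of up to 6 groups. In F08B12.4 the libraries of ints-4(RNAi) and of every cadmium group lay at 45.3% or above, and those of numr-1/2(RNAi) and control(RNAi) without cadmium at 35.1% or below.

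When both groups received cadmium, ints-4(RNAi) differed from control(RNAi) in 1 of 186 tested pairs, the unc-44 pair. Among all 2099 events, 0.333% were called, 0.238% higher and 0.0953% lower. The libraries did not overlap in 33 of the 186 (17.7%, against 13.3% of all events), and 11 of these differed by 10 points or more (5.91%, against 5.57%). Without a shared transcript, 8 events had libraries apart by 10 points or more in their means, none of them called. They were 2 in the glycosyltransferase gene gly-5 and 1 each in atn-1, egl-15, unc-32, sup-37, unc-62 and the calcium channel gene cca-1, the last with as few as 11 reads in a library. Another listing of unc-62 exons with the same start positions, the pair described further below, overlapped in this comparison. Its means were 30.2% in ints-4(RNAi) with cadmium and 37.5% in control(RNAi) with cadmium (-7.36 points, adjusted p = 0.535). For gly-5 the means of 1 pair were 83.4% in ints-4(RNAi) with cadmium and 70.8% in control(RNAi) with cadmium (adjusted p = 0.333).

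numr-1/2(RNAi) without cadmium gave 3 called pairs among 202, 1 higher and 2 lower than control(RNAi). Of all 2694 events, 1.41% were called, 1.22% higher and 0.186% lower, so that the share of mutually exclusive events called, 1.49%, was near that of all events. The libraries did not overlap in 27 of 202 (13.4%, against 15.1% of all events), and 12 of these differed by 10 points or more (5.94%, against 8.54%). The called pairs were 1 in let-805 and 2 in lev-11.

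let-805 encodes myotactin, which helps to anchor body wall muscle to the epidermis, and its exons at chrIII:2676547-2676664 and chrIII:2676762-2676870 share no transcript. The first exon was at 22.1%, 25% and 17.3% in numr-1/2(RNAi), against 8.70%, 9.42% and 7.74% in control(RNAi). The level rose by 12.8 points, with every numr-1/2(RNAi) library above every control (adjusted p = 0.0259). With cadmium, numr-1/2(RNAi) worms were at 12.2%, 12.39% and 13.1%, and the level fell by 8.89 points relative to numr-1/2(RNAi) without cadmium (adjusted p = 0.00791). The control(RNAi) levels were 8.76%, 11.1% and 8.78% with cadmium (0.928 points, adjusted p = 0.534). The difference between these cadmium effects was not called (interaction, adjusted p = 0.281).

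The other lev-11 pair (chrI:14623571-14623709 and chrI:14623010-14623148) used its first exon rarely, with 1.15%, 1.13% and 1.32% in numr-1/2(RNAi) and 1.77%, 1.87% and 1.90% in control(RNAi). With at least 16575 reads per library the difference of -0.641 points was called (adjusted p = 0.0249). akt-1, which encodes the Akt kinase of insulin signalling, was at 81.3%, 82.9% and 80.8% in numr-1/2(RNAi), against 67.1%, 72.7% and 62.7% in control(RNAi). These libraries did not overlap, but the difference of 14.1 points missed the threshold (adjusted p = 0.0728).

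With cadmium, numr-1/2(RNAi) differed from control(RNAi) in 2 of 138 pairs, both lower. Of all 1912 events 3.71% were called, 3.45% with the counted form higher and 0.262% lower. The libraries did not overlap in 21 of the 138 (15.2%, against 20.3% of all events), and 9 of these differed by 10 points or more (6.52%, against 11.9%). unc-32 encodes the a subunit of the vacuolar ATPase, a proton pump, and its pair at chrIII:8909233-8909355 and chrIII:8910081-8910221 shares no transcript. It was at 28.7%, 30.4% and 31.3% in numr-1/2(RNAi) with cadmium, against 47.8%, 42.0% and 43.9% in control(RNAi) with cadmium, and fell by 14.4 points (adjusted p = 0.0218). Without cadmium the levels were 23.4%, 25.9% and 25.8% in numr-1/2(RNAi), against 32.1%, 34.7% and 38.0% in control(RNAi), also without overlap (-9.92 points, adjusted p = 0.0715). zyx-1, which encodes zyxin of muscle attachment sites, was at 50.2%, 50.1% and 51.3%, against 55.9%, 54.6% and 54.3% in control(RNAi) with cadmium (-4.41 points, adjusted p = 0.0410). Both zyx-1 exons were included at 97.1% or more as skipped exons in control(RNAi) with cadmium. The first was included at 97.6% or more in numr-1/2(RNAi) with cadmium. The zyx-1 exons share annotated transcripts, so exon use and relative coverage cannot be told apart in the level of this pair. The tropomyosin pair above, with exons at chrI:14624544-14624661 and chrI:14624303-14624420, was at 48.5%, 51.8% and 56.5% in numr-1/2(RNAi) with cadmium, against 76.3%, 64.4% and 66.3%, which was not called (-16.7 points, adjusted p = 0.105).

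**Figure D3:**
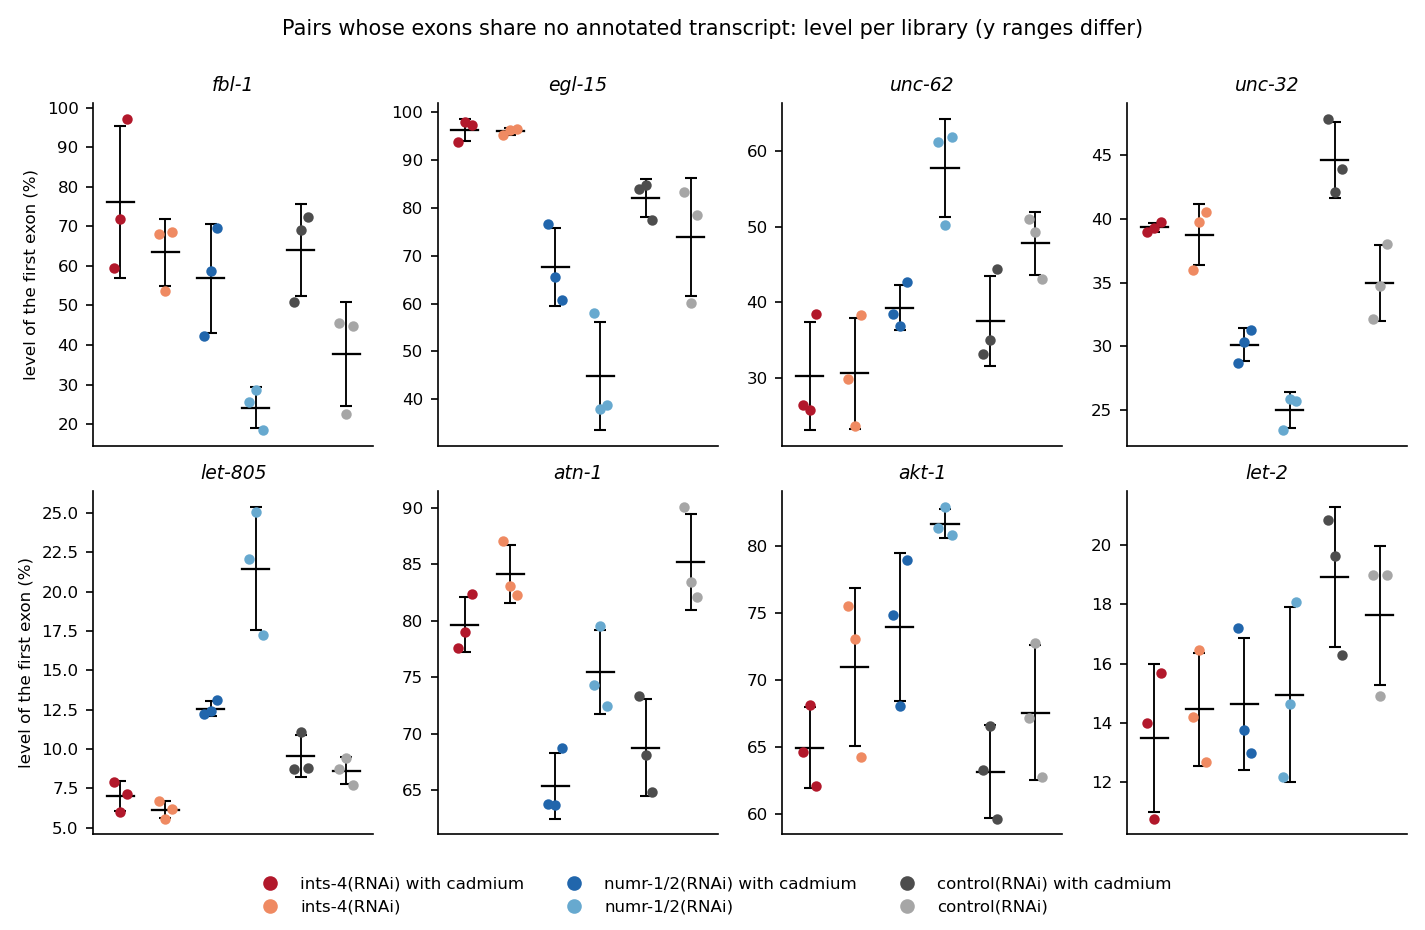
Level of the first exon, in percent, of 8 pairs whose exons share no annotated transcript, with each library as a point and the mean ± SD of 3 libraries in black for each of the 6 groups. The unc-32 libraries of numr-1/2(RNAi) with cadmium lay between 28.7% and 31.3%, below those of control(RNAi) with cadmium, and the let-805 libraries of numr-1/2(RNAi) lay above those of all other groups.

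Cadmium in numr-1/2(RNAi) gave 8 called pairs of 200, 4 higher and 4 lower. Of all 2256 events 4.43% were called, 1.33% higher and 3.10% lower, and of the mutually exclusive ones 4%. The libraries did not overlap in 36 of 200 (18%, against 16.2% of all events), and 14 of these differed by 10 points or more (7%, against 7.54%). Higher with cadmium were pairs in fbl-1, epg-8, F08B12.4 and nlp-40, and lower were pairs in unc-62, atn-1, let-805 and unc-44.

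fbl-1 encodes fibulin, a glycoprotein of basement membranes, and showed the largest called difference. Its first exon (chrIV:9542035-9542292) was at 42.2%, 58.8% and 69.7% in numr-1/2(RNAi) with cadmium, against 25.5%, 28.7% and 18.4% without. The groups did not overlap and the level rose by 32.7 points, on 96 to 185 reads per library (adjusted p = 0.00196). In control(RNAi) the values were 50.8%, 69.0% and 72.4% with cadmium, against 45.6%, 22.4% and 44.9% without, and in ints-4(RNAi) without cadmium 68.1%, 53.6% and 68.6%. Neither difference from control(RNAi) was called, at 26.4 points (adjusted p = 0.368) for cadmium and 25.8 points (adjusted p = 0.143) for ints-4(RNAi), and both use the same control libraries.

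unc-62 encodes a homeodomain transcription factor of the Meis family. Its pair at chrV:4504975-4505120 and chrV:4505359-4505516 was at 38.4%, 36.8% and 42.6% in numr-1/2(RNAi) with cadmium, against 61.2%, 50.3% and 61.9% without, and fell by 18.5 points (adjusted p = 0.0286). atn-1 encodes alpha-actinin, which cross-links actin in muscle dense bodies. Its first exon (chrV:12480728-12480888) was at 63.8%, 63.7% and 68.7% in numr-1/2(RNAi) with cadmium, against 74.4%, 79.6% and 72.5% without, and fell by 10.1 points (adjusted p = 0.0227). In control(RNAi) the atn-1 pair was at 73.4%, 68.1% and 64.9% with cadmium, against 90.1%, 83.4% and 82.1% without, which did not overlap and was not called (-16.4 points, adjusted p = 0.171).

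The unc-44 pair was at 34.3%, 32.5% and 32.2% in numr-1/2(RNAi) with cadmium, against 41.8%, 40.7% and 40.9% without (-8.12 points, adjusted p = 0.000391). epg-8, which encodes an autophagy protein, was at 37.1%, 32.1% and 32.8%, against 18.5%, 13.9% and 23.2% without cadmium, a rise of 15.4 points (adjusted p = 0.0056). As a skipped exon, its first exon was included at 49.6%, 47.1% and 47.7% with cadmium, against 21.8%, 22% and 29.1% without. nlp-40 encodes a peptide that the intestine secretes in the defecation rhythm. The exons of its pair share annotated transcripts, so exon use and relative coverage cannot be told apart in its level. The level of its first exon was 1.86%, 2.27% and 1.14% in numr-1/2(RNAi) with cadmium, against 0%, 0% and 0.510% without (1.59 points higher, adjusted p = 0.0158). In control(RNAi) it was 3.74%, 2.02% and 1.93% with cadmium, against 0.371%, 0% and 0.241% without. These libraries did not overlap, and the difference was not called (2.36 points, adjusted p = 0.169). The cells of numr-1/2(RNAi) without cadmium were separated with the supplementary tables.

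In control(RNAi), cadmium changed 1 of 203 pairs, the F08B12.4 pair described above, and this was also the only event called among all 2584 (0.0387%). The libraries did not overlap in 28 of the 203 (13.8%, against 12.9% of all events), 13 higher and 15 lower with cadmium, and 10 differed by 10 points or more (4.93%, against 6.62%). The uncalled ones included atn-1 and fbl-1 above, the calpain gene clp-1 at a mean of 74.1% with cadmium and 88.8% without (adjusted p = 0.368), and the kinesin gene klp-12 at 63.0% with cadmium and 77.4% without (adjusted p = 0.184).

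In ints-4(RNAi), cadmium changed 0 of 128 pairs in the quasi-binomial test, and 0 of all 1924 events (0%). At an unadjusted p under 0.05 there were 22 pairs (17.2%, against 9.30% of all events), and limma on log2 ratios gave 4 such pairs and also called 0. The libraries did not overlap in 23 of 128 (18%, against 12.8% of all events), of which 5 differed by 10 points or more (3.91%, against 3.95%).

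**Figure D4:**
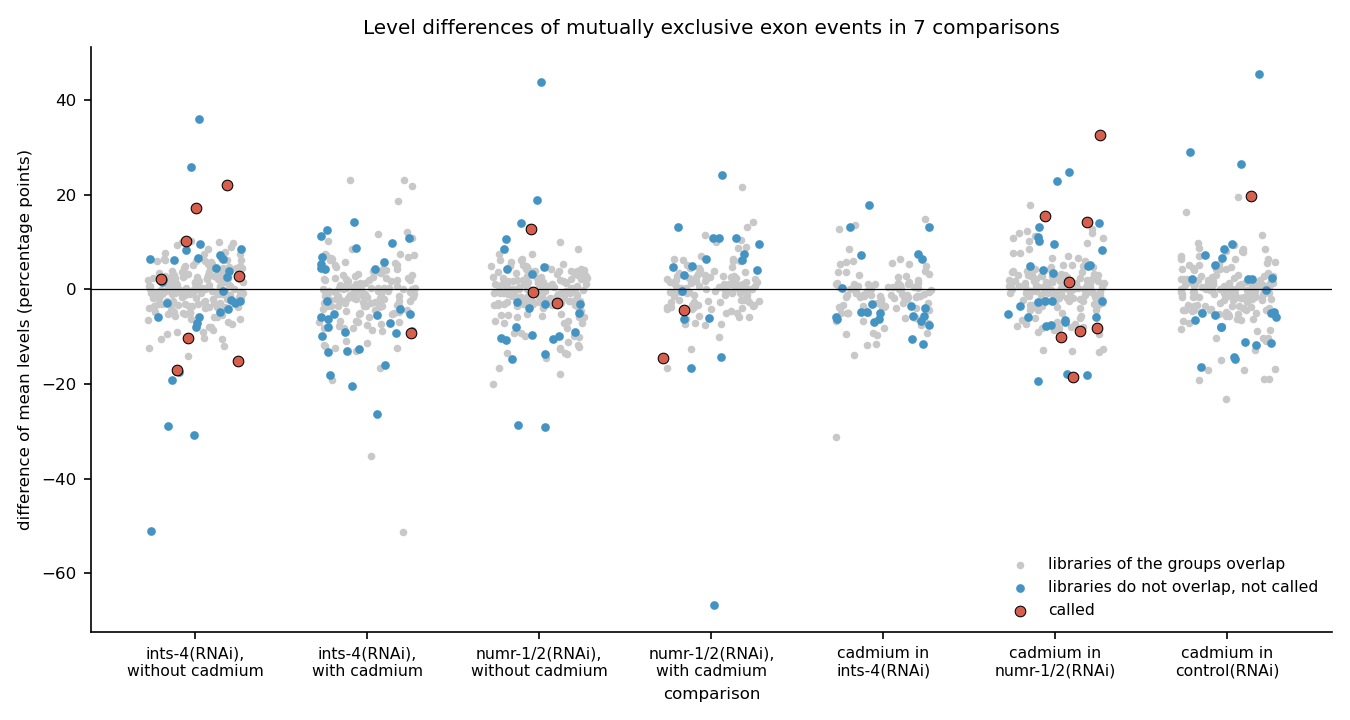
Difference of mean levels, in percentage points, for every tested mutually exclusive pair in 7 comparisons, the group named minus its control or, for cadmium, with minus without, with called pairs in red, pairs whose libraries do not overlap in blue and the others in grey. Called pairs numbered 8, 1, 3, 2, 0, 8 and 1 from left to right, and many larger differences in blue were not called.

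Whether the cadmium effect itself depended on the RNAi was tested on pairs readable in 4 groups. Between numr-1/2(RNAi) and control(RNAi), 0 of 130 pairs were called by the quasi-binomial interaction test (0% of all 1719 events), with 12 at an unadjusted p under 0.05 (9.23%, against 8.67% of all events). limma called 0 as well. Between ints-4(RNAi) and control(RNAi), 1 of 121 was called, the F08B12.4 pair, and 0.297% of all 1686 events.

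The textbook pair of let-2 moved little. Its first exon (chrX:16386754-16386861) averaged 13.5% ± 2.50 in ints-4(RNAi) with cadmium, 14.5% ± 1.91 in ints-4(RNAi), 14.7% ± 2.23 in numr-1/2(RNAi) with cadmium, 15% ± 2.96 in numr-1/2(RNAi), 18.9% ± 2.36 in control(RNAi) with cadmium and 17.6% ± 2.35 in control(RNAi) (SD, n = 3 each). No comparison of it was called, and the libraries were apart only between ints-4(RNAi) and control(RNAi) with cadmium (-5.43 points, adjusted p = 0.203). The slo-1 pair, in the gene of a calcium-activated potassium channel, rested on 17 to 112 reads per library and ranged between 3.57% and 38.0% within control(RNAi) alone. In mrp-1, whose product is an ABC transporter, the pair at chrX:580298-580453 and chrX:579988-580143 averaged 25% ± 3.77 in numr-1/2(RNAi) with cadmium, against 17.4% ± 5.93 without (SD, n = 3 each), and was called in no comparison.

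By gene list, the calls were few in every comparison. Muscle and cytoskeleton genes gave 3 calls of 20 tested in ints-4(RNAi) without cadmium, 2 higher and 1 lower, and 2 of 19, both lower, in numr-1/2(RNAi) without cadmium and again for cadmium in numr-1/2(RNAi). The 2 higher calls in ints-4(RNAi) and both calls in numr-1/2(RNAi) without cadmium lay in a single gene, lev-11. Muscle and cytoskeleton genes gave 1 lower call with cadmium in each RNAi, of 17 tested for ints-4(RNAi) and 16 for numr-1/2(RNAi). Matrix and adhesion genes gave 1 higher call of 13 in numr-1/2(RNAi) and, for cadmium in numr-1/2(RNAi), 1 higher and 1 lower call of 14. Kinases and receptors gave 1 higher call of 21 in ints-4(RNAi), channels and transporters 1 lower call of 15 in numr-1/2(RNAi) with cadmium, and transcription and chromatin genes 1 lower call of 7 for cadmium in numr-1/2(RNAi). RNA binding and DNA repair genes, with up to 9 and 5 events tested in a comparison, gave no call in the quasi-binomial test. Outside all lists, 4 of 136 events were called in ints-4(RNAi) without cadmium (1.46% of all events of the 5 types) and 0 of 113 with cadmium (0.333%). In numr-1/2(RNAi), 0 of 116 were called without cadmium (1.41%) and 0 of 70 with cadmium (3.71%), and cadmium in numr-1/2(RNAi) gave 3 of 122 (4.43%). The lists were not tested against these shares.

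Host genes of the pairs changed little in pooled expression. All 247 had a value, and between 93.5% and 95.5% of them, depending on the comparison, lay within 2-fold of the other group, against 74.9% to 84.0% of all genes with values. The latter share covers genes at any expression level, very low values included. Host genes were not matched to it for expression, so the shares are not directly comparable. Among the 15 called genes, the largest ratios were those of clec-123 in ints-4(RNAi), given above, and of egl-15 and F32A5.2 in numr-1/2(RNAi) without cadmium, at 0.327 and 2.87 times control(RNAi).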

How the data were processed

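Splicing tables and gene expression tables of 18 libraries were used, 3 biological replicates in each of 6 groups of whole worms, as the study's methods state. Libraries were made by oligo(dT) selection. The submitters' processing notes name HISAT2 2.1.0, HTSeq 0.6.1 and Cufflinks 2.1.1, and the methods name rMATS for splicing. The deposited read counts per event, made by the authors with rMATS from junction reads and reads on the exons, are whole numbers not normalized for depth. The deposited inclusion levels are fractions that the authors computed from these counts and the form lengths. The deposited gene expression values are a depth-normalised signal from the authors, 1 pooled value per group, and were used with no error. Columns with the authors' own fold changes, p-values and q-values were not used. In 1 workbook, the splicing columns of the group set against ints-4(RNAi) with cadmium equal those of control(RNAi) with cadmium, and were read as that group.

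Some cells had lost the commas between libraries. They were split so that the counts give the deposited levels, with the study's supplementary tables deciding among several possible splits for 27 of 1521 event and group pairs, and 19 were left out. For the genome build, the sources used here give no name. Exon positions are as in the files, and 95.0% of 3256 exon ends of the pairs match the WBcel235 gene annotation. No genome was used, so exon sequences are not shown.

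The 7 comparisons and 2 interactions were tested with a quasi-binomial model per event in R 4.3.3. Its dispersion was moderated with limma 3.58.1 over all events of 5 types that had 10 or more reads in each library, and p-values were adjusted by Benjamini-Hochberg over all of them. In data simulated for each of the 7 comparisons, 17% (ints-4(RNAi) with cadmium) to 40% (cadmium in ints-4(RNAi)) of events changed by 1 on the logit scale were recovered. Of events changed by 2, 52% to 67% were recovered in the same comparisons, and between 0% (ints-4(RNAi) without cadmium) and 6.14% (cadmium in ints-4(RNAi)) of calls fell on unchanged events. Events are described in full when they were called with 20 reads or more per library and without overlap, 1 per gene, the 14 largest differences, together with pairs in let-2, egl-15, unc-32, unc-62, lev-11, slo-1, mrp-1 and akt-1. Other events named were chosen after their values were seen. The members, gene lists and tests were chosen with earlier results of these data known. Alternatives were at least 20 reads, at least 1 read, limma on log2 ratios with 0.5 added, omission of cells split with the supplementary tables, levels without form lengths, and omission of each library. A dispersion floor of 1 and robust moderation were added after seeing the data. Figures and tables were made with Python 3.11.15, pandas 2.3.3, NumPy 2.4.6 and matplotlib 3.10.9.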

Additional observations from a re-analysis of the deposited data

Results flagged for a closer look

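The pair in F08B12.4 stood out because the effect of cadmium differed between RNAi groups. With cadmium minus without, the level of the first exon differed by -1.47 points in ints-4(RNAi) and by 19.8 points in control(RNAi). The difference of these effects was -21.3 points in the quasi-binomial interaction test (adjusted p = 4.02e-08). It stayed between -22.2 and -20.5 points when any of the 12 libraries was left out, and limma on log2 ratios gave an adjusted p of 0.462. ints-4(RNAi) libraries without cadmium were at 51.2% to 51.7%, and those of control(RNAi) with cadmium at 52.3% to 55.1%. Without the cells split with the supplementary tables, control(RNAi) with cadmium has no reading for this pair.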

How the results depend on the processing

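With limma on log2 ratios, 0 pairs were called in each of the 7 comparisons and 0 in the ints-4(RNAi) interaction. Without the cells split with the supplementary tables, cadmium in control(RNAi) had 0 calls and the ints-4(RNAi) interaction 0. Of 2 alternatives chosen after seeing the data, a dispersion floor of 1 gave 16 and 15 calls for ints-4(RNAi) without and with cadmium, 17 and 12 for numr-1/2(RNAi), and 2, 14 and 6 for cadmium in ints-4(RNAi), numr-1/2(RNAi) and control(RNAi). Robust moderation gave 6 calls for numr-1/2(RNAi) without cadmium and 7 with cadmium. With 1 library left out, there were 0 to 2 calls for ints-4(RNAi) without cadmium and for numr-1/2(RNAi) with cadmium. There were 0 to 1 for ints-4(RNAi) with cadmium, numr-1/2(RNAi) without cadmium and cadmium in control(RNAi). Cadmium in ints-4(RNAi) and in numr-1/2(RNAi) had 0. The 1 call for ints-4(RNAi) with cadmium was not the pair of the main test. Of the 2 for numr-1/2(RNAi) with cadmium, 1 was a call of the main test. The ints-4(RNAi) interaction had 1 to 2. Fewer libraries also leave fewer degrees of freedom, and otherwise the cause was not tested.

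Over 274 combinations of the 23 called pairs with a setting, 121 kept the call, the others lost it and 0 changed direction, and 0 of the 23 kept it in every setting. Without division by form length, 46 group levels of the fully described events moved by more than the SD between replicates and 58 did not. When a library was left out, 0 of 312 did so. A mean of 3 libraries cannot move by more than that SD in this way, so the omission could not test the levels. The F08B12.4 pair in ints-4(RNAi) kept its call in 10 of 12 settings. No paired analysis was possible because the files give the libraries by position within a cell, without a replicate number. Pairs with few reads, such as 17 in 1 slo-1 library, leave differences of 20 points or more undecided.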
